A study of Mus musculus with 20 samples.

Results

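Cdx1, Cdx2, Hnf4a, Hnf4g, Klf4, Klf5 and Gata6 encode 7 transcription factors that maintain intestinal identity. They were followed in 20 mRNA libraries of colonic organoids (colonoids), which are epithelial structures grown from crypts in a gel matrix. Their entries were taken by gene symbol from the table of transcript values, 15 transcripts of 113193 in all, and summed per gene. All 7 genes passed the filter of a mean value of at least 1 over the libraries, as did 13539 of the 35240 gene symbols. Colonoids came from distal colon of 8-week-old mice of 2 genotypes, wildtype (WT, C57BL/6) and Tnfr2-/-. The latter carry a whole-body deletion of Tnfrsf1b, which encodes TNF receptor 2 (TNFR2), in every cell and not in the epithelium alone. Both genotypes were cultured alike in Matrigel with IntestiCult medium, passaged 5 times, passed through a mesh filter, reseeded, and left untreated. Collection days are counted from that reseeding as days post-passage (DPP), and days 1, 2 and 3 are here called early, days 5 and 7 late. Each of the 10 groups of genotype and day held 2 libraries, 1 from each of 2 mice, so that the 5 libraries of a mouse are repeated samples of 1 animal. That a replicate number marks the same mouse on all days is read from the design text and the column names, no label states it outright, and every statement by mouse rests on it. In separate cultures read cell by cell, the study describes Pdgfra+ fibroblasts beside Krt8+ epithelium. In such bulk samples, fewer cells of a type and less RNA per cell cannot be told apart.

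The caudal homeobox factors CDX1 and CDX2 specify hindgut endoderm and maintain the intestinal program in the adult. When CDX activity is lost, intestinal epithelium is known to take on gastric or squamous traits. HNF4A and HNF4G are paralogous nuclear receptors that bind enhancers of genes of absorptive cells together with CDX2. KLF5 is made mainly in dividing crypt cells and KLF4 mainly in differentiating cells, including goblet cells, and GATA6 is the GATA factor of the colonic epithelium.

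Values are transcript abundances per length, scaled by a size factor per library (normalised abundance), so that levels can be compared between genes. Library sums lay between 900655 and 1111080, and no read depth is kept in such values, so no counting interval is given. The deleted gene was checked first. Tnfrsf1b lay between 11.1 and 21.9 in the 10 WT libraries (median 14.3) and between 2.71 and 11.5 in the 10 Tnfr2-/- libraries (median 4.85). The difference was -1.35 on the log2 scale (SE 0.167), at an adjusted p of 9.72e-05 in limma. The highest Tnfr2-/- library thus lay above the lowest WT library, and the transcript of the deleted gene was not absent. Epithelial markers were abundant in every library, with summed values of the 7 listed genes between 11635 and 20028. Fibroblast markers were present in every library as well, with sums of 12 genes between 1402 and 9932. Markers of other cell types were low, and some were present in every library. Of 7 immune markers 3 passed the filter, with means of 17.6 for Cd68, 3.27 for Csf1r and 1.53 for Lyz2, and neither Cd68 nor Csf1r was at 0 in any library. Ptprc, carried by all leukocytes, averaged 0.182 and was at 0 in 6 libraries. Of 4 endothelial markers 1 passed, Pecam1 at a mean of 1.35, while Cdh5 was at 0 in 12 libraries. Of 5 markers of enteric neurons and glia 1 passed, Uchl1 at a mean of 1.85, while Sox10 was at 0 in 14.

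Over all libraries Klf5 had the highest mean of the factors, at 99.0 ± 38.0 (SD, n = 20 libraries), above 88.4% of the genes tested. Hnf4a followed at 86.5 ± 61.4, then Klf4 at 41.2 ± 18.6 and Cdx1 at 22.1 ± 24.4. Gata6 stood at 13.1 ± 2.51, Cdx2 at 4.62 ± 2.16 and Hnf4g at 1.66 ± 0.823. The paralogs thus differed widely in level, with Hnf4g above only 6.46% of tested genes and Cdx2 above 20.0%. Neighbours in this order overlapped in part. Klf5 was above Hnf4a in 16 of 20 libraries, and the 4 with Hnf4a above were all WT (mouse 1 at 3, 5 and 7 DPP and mouse 2 at 5 DPP), so that the late WT mean was 170 for Hnf4a and 137 for Klf5. Hnf4a was above Klf4 in 18 libraries and Klf4 above Cdx1 in 19. Cdx1 was above Gata6 in 11 of 20 libraries, so this pair has no fixed order. Gata6 was above Cdx2 in all 20, and Cdx2 above Hnf4g in 19. The spread also set the factors apart. The highest library was 45.0 times the lowest for Cdx1 and 2.03 times for Gata6.

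**Figure D1:**
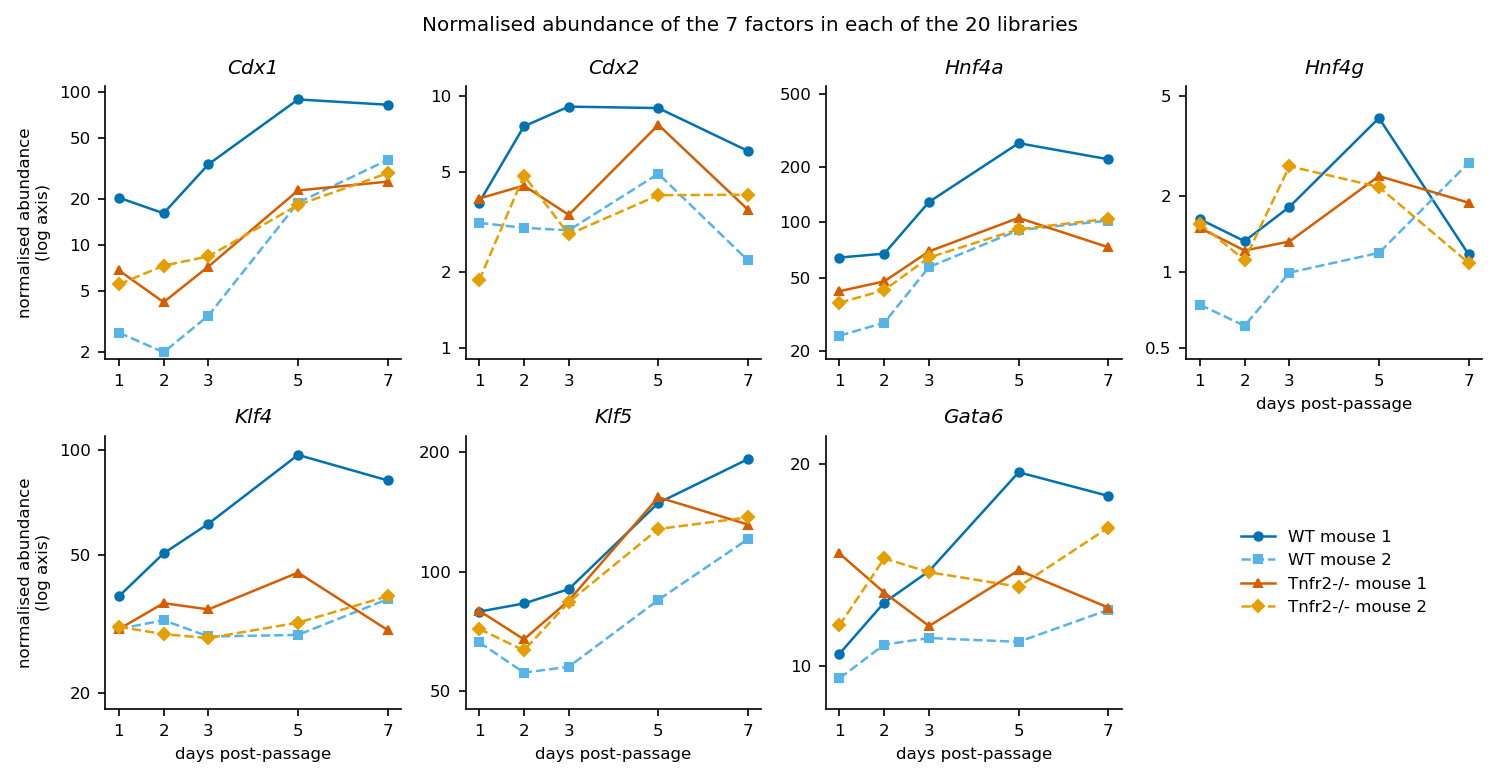
Normalised abundance (log axis, no unit) of each factor against days post-passage, 1 line for each of the 4 mice and 1 point for each of the 20 libraries. Cdx1, Hnf4a and Klf5 lie higher at 5 and 7 DPP than at 1 to 3 DPP in each mouse, and WT mouse 1 is the highest line at all 5 days for Cdx1, Hnf4a and Klf4.

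The comparison of late with early days asked how the factors change as colonoids mature after passage. Cdx1, Hnf4a and Klf5 rose, while Cdx2, Hnf4g, Klf4 and Gata6 did not pass the test. Over both genotypes the late level was higher by 2.06 for Cdx1 (SE 0.473, adjusted p = 0.0045 in limma), by 1.21 for Hnf4a (SE 0.264, adjusted p = 0.00336) and by 0.87 for Klf5 (SE 0.132, adjusted p = 0.000255), all as differences of log2(value + 1). These are 3 of 7 factors called higher and 0 lower, against 18.0% of all tested genes called higher and 32.7% called in either direction. In each of the 4 mice, both late libraries lay above all 3 early libraries of the same mouse for these 3 genes, a pattern held by 5.19% of tested genes. None of the 7 factors had all 8 late libraries above all 12 early libraries (1.43% of tested genes). The median difference over the 7 factors was 0.35, beside 0.01 over all tested genes.

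**Figure D2:**
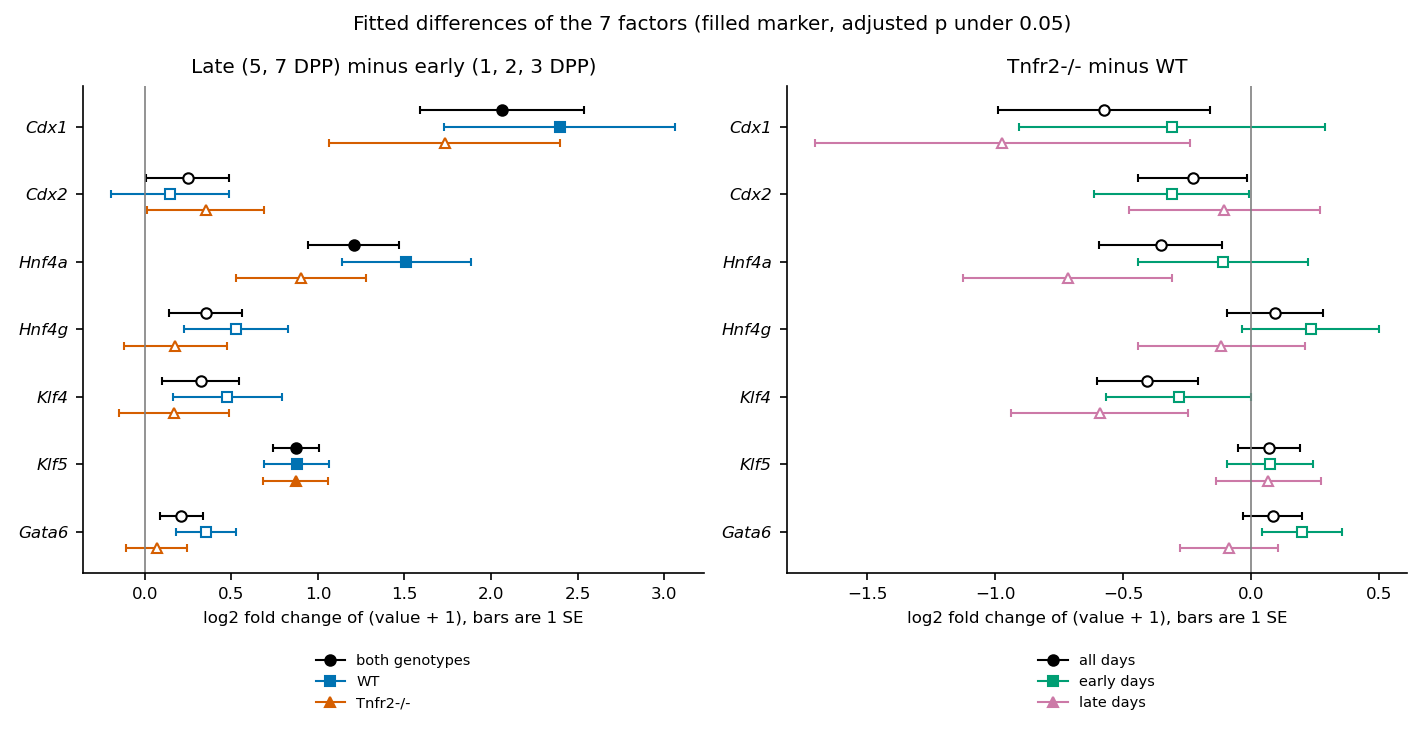
Fitted differences of log2(value + 1) with bars of 1 SE, for late minus early days (left; both genotypes, WT and Tnfr2-/-) and for Tnfr2-/- minus WT (right; all, early and late days). Filled markers have an adjusted p under 0.05; these are Cdx1, Hnf4a and Klf5 on the left, with Klf5 alone filled in Tnfr2-/-, and none on the right.

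Hnf4a encodes the main HNF4 receptor of the colon and lies at chr2:163506808-163572910 (GRCm38, plus strand). It is transcribed from 2 start regions 40379 bases apart, and its early and late values are given below by start. The table listed 1 transcript from the upstream start with a mean over 1, ENSMUST00000143911.7 (3 exons, 431 bases, annotated without its 3′ end), and 2 from the downstream start. The latter were ENSMUST00000018094.12 (10 exons, 4356 bases) and ENSMUST00000109411.7 (10 exons, 4362 bases). The upstream-start transcript is told apart from the other 2 by the 180 bases of its opening exon. The 2 downstream-start transcripts differ by 6 bases at their ends, so reads cannot be divided between them with certainty and their values were summed. The coding sequences of the opening exons, shown because they set the N-termini of the resulting proteins apart, are as follows, with annotated start codons in capitals (GENCODE M21, GRCm38, plus strand, chr2:163506939-163506987 and chr2:163547305-163547419). The second capital ATG of the longer sequence is the annotated start of ENSMUST00000109411.7.
ENSMUST00000143911.7: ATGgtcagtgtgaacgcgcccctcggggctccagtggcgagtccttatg
ENSMUST00000018094.12: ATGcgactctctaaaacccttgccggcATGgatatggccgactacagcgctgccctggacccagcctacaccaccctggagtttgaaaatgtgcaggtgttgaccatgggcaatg

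Promoter windows of 300 bases around each RefSeq start (GRCm38.p6) were searched on both strands for the letters bound by other factors named here. HNF1 factors were searched by the letters GTTAAT and HNF4 factors by CAAAGT. Those searched for GATA factors were AGATAA, whereas CDX factors were searched by TTTATG and FOXA factors by TGTTTAC. Also searched were the GC box that KLF factors can bind, as GGGCGG, and the TATA box, whose letters here were TATAAA. Entries matched 3 of the 7 genes, namely Hnf4a with 2 windows and Cdx2 and Klf4 with 1 each. Both Hnf4a windows are shown in part, since values from both starts are compared below. The downstream stretch ends just before the pair of downstream-start transcripts, and the upstream stretch ends with its GC box, which lies in the opening bases of ENSMUST00000143911.7. Motifs found are in capitals.
Hnf4a upstream start, chr2:163506607-163506818, plus strand: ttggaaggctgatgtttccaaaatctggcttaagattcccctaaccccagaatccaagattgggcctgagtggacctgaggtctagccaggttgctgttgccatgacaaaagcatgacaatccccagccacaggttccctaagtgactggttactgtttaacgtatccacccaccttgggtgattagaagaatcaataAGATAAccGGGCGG
Hnf4a downstream start, chr2:163546905-163547186, plus strand: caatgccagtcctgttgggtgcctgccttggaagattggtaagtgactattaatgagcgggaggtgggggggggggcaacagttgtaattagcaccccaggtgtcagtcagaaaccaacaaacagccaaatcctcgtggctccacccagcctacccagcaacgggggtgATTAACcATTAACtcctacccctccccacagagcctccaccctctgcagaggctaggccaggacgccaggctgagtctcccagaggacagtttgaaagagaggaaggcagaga

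The upstream window held AGATAA and GGGCGG once each, and the downstream window held ATTAAC, which is GTTAAT on the other strand, 2 times. Of 32851 promoter windows of the same length, 11.2% held AGATAA, 35.7% GGGCGG and 7.10% GTTAAT on either strand. The Cdx2 window held GTTAAT and TGTTTAC (3.65% of windows) once each, and the Klf4 window held GGGCGG 4 times over both strands. A match describes letters only, and no binding was measured here.

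Summed over its transcripts, Hnf4a in WT mouse 1 read 64.3, 67.5 and 129 at 1, 2 and 3 DPP and 269 and 220 at 5 and 7 DPP. WT mouse 2 read 24.2, 28.4 and 57.1 early and 90.5 and 102 late. In both WT mice every late value was above every early value, and the late mean was 2.81 and 2.63 times the early mean. Tnfr2-/- mouse 1 read 42.2, 47.7 and 69.4 early and 106 and 73.1 late. Tnfr2-/- mouse 2 read 36.5, 42.7 and 64.4 early and 91.6 and 104 late. Late values were again all above early values within each mouse, by 1.68 and 2.05 times in the means. In each mouse the value at 3 DPP was also above those at 1 and 2 DPP. Within WT, where 11.6% of tested genes were called higher and 20.1% in either direction, the late level was higher by 1.51 (SE 0.373, adjusted p = 0.0127 in limma), and 3 of the 7 factors passed, Cdx1, Hnf4a and Klf5. The WT call for Hnf4a was lost without WT mouse 1 at 5 DPP (1.12, adjusted p = 0.0721 in limma) or at 7 DPP (1.24, adjusted p = 0.0735), and without either Tnfr2-/- mouse (adjusted p = 0.0909 and 0.0906). Within Tnfr2-/- it was higher by 0.90 (SE 0.373, adjusted p = 0.108), which did not pass, and Klf5 alone of the 7 did (10.4% of tested genes higher, 20.3% in either direction). With the mouse as a replicate block, which compares late with early libraries of the same animal, the Tnfr2-/- difference passed at an adjusted p of 0.000279 in limma (13.3% of tested genes were called higher in that fit). Both genotypes share an error estimate there, so the block also takes out the gap between the WT mice. That gap was 1.28 for Hnf4a on the log2 scale, against 0.032 between the Tnfr2-/- mice. The change of the genotype difference from early to late was -0.61 (SE 0.528, adjusted p = 0.686; 0.0945 with the block), so the rise was not shown to differ between genotypes.

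The values of Hnf4a were then divided by start. The upstream-start model lacks its 3′ end, so reads from later exons can be counted to the downstream-start transcripts whichever start they came from. Of 11 transcripts of the 7 genes tested singly, 3 rose in limma, ENSMUST00000018094.12 of Hnf4a, the single Cdx1 transcript and ENSMUST00000005279.7 of Klf5 (8.3% of all transcripts were called). Between genotypes 0 of 11 passed, and 0 had an unadjusted p under 0.05 (background 0.715%). The summed downstream-start transcripts were 48.0, 54.0 and 97.0 early and 199 and 183 late in WT mouse 1, and 21.8, 28.4 and 40.1 early and 72.7 and 95.0 late in WT mouse 2. In Tnfr2-/- they were 34.7, 47.7 and 48.2 early and 79.8 and 73.1 late in mouse 1, and 29.0, 39.1 and 47.2 early and 75.7 and 75.8 late in mouse 2. The 4 late Tnfr2-/- libraries lay close together at 76.1 ± 2.78 (SD), all above the 6 early ones at 41.0 ± 8.03. The late WT libraries averaged 137 ± 62.8 because the mice differed. The sum of both transcripts rose by 1.21 (SE 0.243, adjusted p = 0.00804 in limma over all transcripts). The upstream-start transcript had a mean of 16.8, ranged from 0 to 66.1 and was listed at 0 in 3 libraries, namely WT mouse 2 at 2 DPP and Tnfr2-/- mouse 1 at 2 and 7 DPP. Its difference was 1.04 (SE 0.710, adjusted p = 0.46), which missed the threshold and was not shown to differ from that of the downstream start. It held 17.5% ± 10.04 (SD) of the 3 transcripts on average and between 0% and 30.6% in single libraries. Its share was between 16.8% and 25.4% in WT mouse 1 and varied more in the other mice. In each of the 4 mice it was lower at 2 than at 1 DPP and higher at 3 than at 2 DPP, and these steps were not tested for shares. Shares of transcripts were compared separately, and none of the transcripts of the 7 genes passed for a change of share with time or genotype. Background calls of that comparison were 0.0466% and 0.0204% of transcripts, and in limma 0 of the shares of the factors were under an unadjusted p of 0.05.

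**Figure D3:**
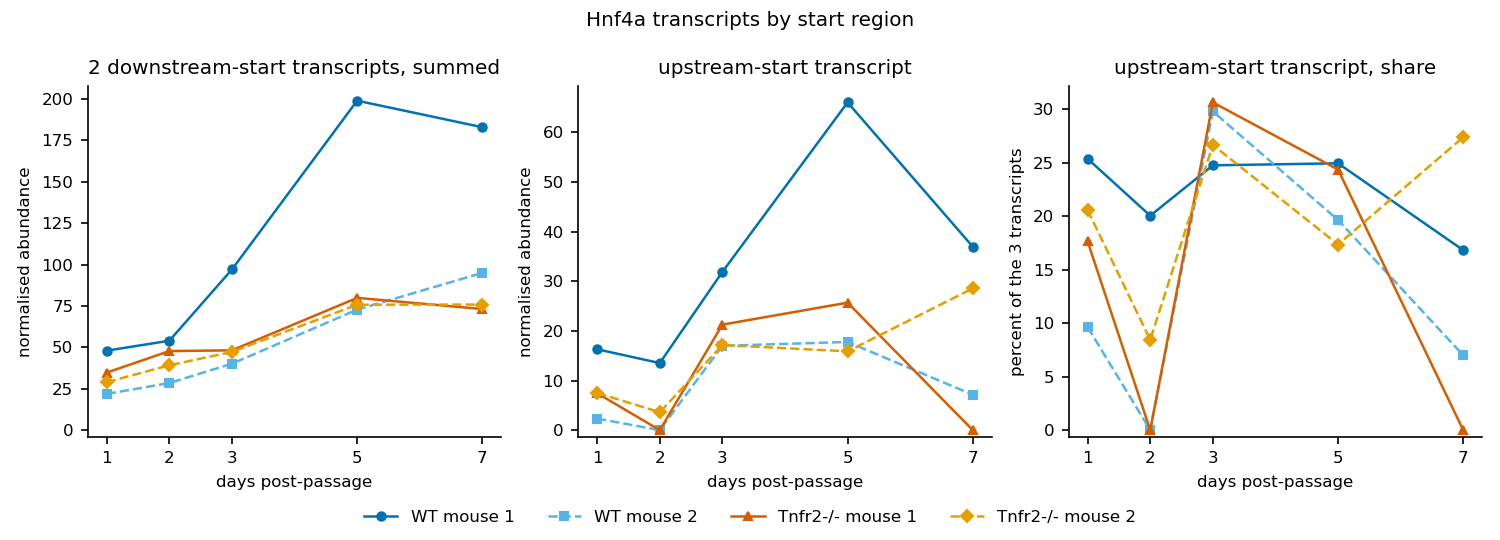
Normalised abundance of the summed downstream-start Hnf4a transcripts (left) and of the upstream-start transcript (middle), and the percent of the 3 transcripts held by the upstream-start one (right), against days post-passage for each of the 4 mice. The summed downstream-start transcripts are higher at 5 and 7 DPP than at 1 to 3 DPP in each mouse, while the upstream-start share lies between 0% and 30.6% and is lowest of the first 3 days at 2 DPP in each mouse.

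Hnf4g, the paralog of Hnf4a that is known mainly from small intestine, stayed low (chr3:3508030-3658052, plus strand). Its values ran from 0.611 in WT mouse 2 at 2 DPP to 4.10 in WT mouse 1 at 5 DPP. Early values were 1.62, 1.33 and 1.82 in WT mouse 1 and 0.742, 0.611 and 0.995 in WT mouse 2, with 4.10 and 1.18 and then 1.19 and 2.72 late. Tnfr2-/- mouse 1 read 1.498, 1.22 and 1.32 early and 2.41 and 1.89 late, and mouse 2 read 1.56, 1.12 and 2.64 early and 2.18 and 1.09 late. Both late values exceeded the early ones in WT mouse 2 and Tnfr2-/- mouse 1, and the phases overlapped in the other two mice. The fitted difference over both was 0.35 (SE 0.211, adjusted p = 0.225 in limma). Its main transcript ENSMUST00000108393.7 was listed at 0 in 4 libraries and the other in 13. Values this low rest on few reads, and with a pseudocount of 1 their fold changes are understated.

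Cdx1, a direct target of the Wnt and retinoic acid pathways, moved most of the 7 factors. It is on chromosome 18. WT mouse 1 read 20.5, 16.2 and 33.8 early and 89.8 and 83.0 late. WT mouse 2 read 2.68, 2.00 and 3.46 early and 19.0 and 36.1 late. In Tnfr2-/- mouse 1 the values were 6.85, 4.24 and 7.26 early and 22.8 and 26.1 late, and in mouse 2 they were 5.54, 7.36 and 8.45 early and 18.4 and 29.6 late. Every late value exceeded every early value of the same mouse. The early values of WT mouse 1 overlapped the late values of the other 3 mice. Late means were 3.68, 10.1, 3.996 and 3.37 times early means in WT mouse 1, WT mouse 2, Tnfr2-/- mouse 1 and Tnfr2-/- mouse 2. Within WT the difference was 2.40 (SE 0.669, adjusted p = 0.0233 in limma). Within Tnfr2-/- it was 1.73 (SE 0.669, adjusted p = 0.0857), and it passed with the mouse as a replicate block at an adjusted p of 0.000343 in limma. That block also took the gap between the WT mice out of the shared error. For Cdx1 this gap was 2.28 on the log2 scale, against -0.096 between the Tnfr2-/- mice. The WT call for Cdx1 was kept in 17 of 24 fits that left out a library or a mouse. It was lost without any 1 of 5 WT libraries and without either Tnfr2-/- mouse. The direction held, with WT differences between 1.85 and 2.94 over these fits.

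Cdx2 (chr5:147300805-147307270, minus strand), which sets the intestinal program in the embryo, did not follow Cdx1. WT mouse 1 read 3.78, 7.60 and 9.10 early and 8.99 and 6.07 late, and WT mouse 2 read 3.14, 3.00 and 2.93 early and 4.92 and 2.23 late. Tnfr2-/- mouse 1 read 3.92, 4.42 and 3.38 early and 7.71 and 3.54 late, and mouse 2 read 1.85, 4.84 and 2.83 early and 4.05 and 4.06 late. In WT mouse 2 and Tnfr2-/- mouse 1 the value at 5 DPP stood above all the others, and late and early values overlapped in every mouse. The difference over both genotypes was 0.25 (SE 0.240, adjusted p = 0.468 in limma). Its late mean was 1.102 to 1.44 times the early mean in the 4 mice.

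Klf5 (chr14:99298691-99315036, plus strand), a factor of proliferating crypt cells, was the steadiest of the 3 that rose. WT mouse 1 read 79.2, 83.1 and 90.3 early and 149 and 192 late, and WT mouse 2 read 66.3, 55.6 and 57.5 early and 84.9 and 121 late. Tnfr2-/- mouse 1 read 79.7, 67.5 and 84.5 early and 154 and 131 late, and mouse 2 read 71.7, 63.3 and 83.7 early and 128 and 137 late. Late values were all above early ones within a mouse, and late means were 1.72 to 2.03 times early means. The difference was 0.88 in WT (SE 0.187, adjusted p = 0.00592 in limma) and 0.87 in Tnfr2-/- (SE 0.187, adjusted p = 0.00576). Each of these calls was kept in 22 of 24 fits that left out a library or a mouse, and lost without either Tnfr2-/- mouse. The change of the genotype difference from early to late was -0.01 (SE 0.264). Over the same days all 4 proliferation markers measured (Mki67, Top2a, Ccnb1 and Birc5) fell, by 0.80 for Mki67 and 1.43 for Birc5, both called. Klf5 was thus higher on days when genes of dividing cells were lower.

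Klf4 (chr4:55527143-55532466, minus strand), a factor of differentiating epithelium, did not pass the test over all libraries. WT mouse 1 read 38.0, 50.5 and 61.5 early and 96.9 and 81.9 late, whereas WT mouse 2 read 30.6, 32.4 and 29.1 early and 29.4 and 37.3 late. Tnfr2-/- mouse 1 read 30.6, 36.3 and 34.8 early and 44.5 and 30.4 late, and mouse 2 read 31.1, 29.6 and 28.8 early and 31.9 and 38.0 late. Both late values lay above the early ones in WT mouse 1 and Tnfr2-/- mouse 2, and the late mean was 1.79 times the early mean in WT mouse 1, against 1.09 to 1.17 times in the other mice. The difference over both genotypes was 0.32 (SE 0.224, adjusted p = 0.299 in limma). Without the single library of WT mouse 2 at 5 DPP, Klf4 passed as higher by 0.53 at an adjusted p of 0.0457 in limma (17.5% of tested genes called higher). Without all 5 libraries of WT mouse 2 it passed as higher by 0.51 at an adjusted p of 0.0113 (18.3%), and without WT mouse 1 the difference was 0.14 (adjusted p = 0.434).

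Gata6, on chromosome 18, was the factor with the narrowest range. WT mouse 1 read 10.4, 12.4 and 13.8 early and 19.4 and 17.9 late, and WT mouse 2 read 9.57, 10.7 and 11.0 early and 10.8 and 12.1 late. Tnfr2-/- mouse 1 read 14.7, 12.8 and 11.5 early and 13.9 and 12.2 late, and mouse 2 read 11.5, 14.4 and 13.8 early and 13.1 and 16.0 late. Late values exceeded early ones in WT mouse 1 and overlapped them in the other 3 mice. The difference was 0.21 (SE 0.124, adjusted p = 0.214 in limma). Gata4 and Gata5, its relatives in small intestine and other endoderm, were near 0, each with a mean of 0.042 and at 0 in 15 libraries.

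When the 5 days were compared at once (F test in limma), the same 3 genes passed, at an adjusted p of 0.0427 for Cdx1, 0.0189 for Hnf4a and 0.00343 for Klf5, against 26.8% of tested genes. The call for Cdx1 was near the threshold and was kept in 7 of 24 fits that left out a library or a mouse, with adjusted p up to 0.467, whereas Hnf4a and Klf5 each kept theirs in 22 of 24, all but those without a Tnfr2-/- mouse. The steps between successive sampling days were compared to place the change in time. In limma 0 of 7 factors passed at any of the 4 steps, where 0.761%, 0.0%, 2.18% and 0.0222% of tested genes passed, and 1 difference, that of Klf5 from 3 to 5 DPP (0.68, SE 0.205, adjusted p = 0.102), was under an unadjusted p of 0.05. With the mouse as a replicate block 4 steps passed, in a fit that called 2.17%, 0.31%, 5.13% and 0.798% of tested genes at the 4 steps in order. Hnf4a was higher by 0.75 at 3 than at 2 DPP (adjusted p = 0.0333 in limma). From 3 to 5 DPP, Cdx1 was higher by 1.53 (adjusted p = 0.00835), Hnf4a by 0.70 (adjusted p = 0.0114) and Klf5 by 0.68 (adjusted p = 0.0050).

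Tnfr2-/- was then compared with WT, the comparison the study was built for. None of the 7 factors passed. In limma 0 of 7 had an adjusted p under 0.05, and 0 had an unadjusted p under 0.05, over all days, over late days, over early days, at each of the 5 days and for the change of the difference from early to late. Background calls were 7.6% of tested genes over all days, 6.45% late, 1.2% early, 0.148% for the change, and 0.0739%, 0.096%, 0.155%, 1.65% and 0.82% at 1, 2, 3, 5 and 7 DPP. Over all days, Tnfr2-/- minus WT was -0.57 for Cdx1 (SE 0.415, adjusted p = 0.444), -0.35 for Hnf4a (SE 0.240, adjusted p = 0.412) and -0.41 for Klf4 (SE 0.198, adjusted p = 0.236). It was -0.23 for Cdx2 (SE 0.213), 0.09 for Hnf4g (SE 0.188), 0.07 for Klf5 (SE 0.122) and 0.08 for Gata6 (SE 0.115). At late days the values were -0.97 for Cdx1 (SE 0.732), -0.72 for Hnf4a (SE 0.409) and -0.59 for Klf4 (SE 0.347). With errors of this size, absence of a call does not show equal levels. Fits over several days take the libraries of a mouse as separate samples, so all genotype p-values given here can be too small for 2 animals per genotype. No factor had 10 WT libraries apart from 10 Tnfr2-/- libraries (0.229% of tested genes), or 4 late WT libraries apart from 4 late Tnfr2-/- ones (11.4%).

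The WT mice stood apart from each other. WT mouse 1 was above WT mouse 2 at all 5 days for 6 of the 7 factors, all but Hnf4g, a pattern held by 8.84% of tested genes. Between the Tnfr2-/- mice, 0 of 7 factors kept 1 order at all 5 days, in either direction (9.64% of tested genes). The median ratio of WT mouse 1 to WT mouse 2 over the days was 7.63 for Cdx1 (range 2.30 to 9.76), 2.53 for Cdx2 (1.205 to 3.11), 2.37 for Hnf4a (2.15 to 2.97) and 2.11 for Klf4 (1.24 to 3.30). It was 2.17 for Hnf4g with a range of 0.433 to 3.44, 1.57 for Klf5 and 1.26 for Gata6. The corresponding ratios of Tnfr2-/- mouse 1 to mouse 2 had medians between 0.881 for Cdx1 and 1.21 for Klf4. WT mouse 1 was the highest of the 4 mice at all 5 days for Cdx1, Hnf4a and Klf4 (2.54% of tested genes), at 4 days for Cdx2 and at 3 days for each of Hnf4g, Klf5 and Gata6. With 2 WT mice, which of them is typical of the genotype cannot be told apart.

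The genotype difference depended on the WT mouse used. Without the 5 libraries of WT mouse 2, so that both Tnfr2-/- mice were compared with WT mouse 1, Tnfr2-/- minus WT was -1.71 for Cdx1 (adjusted p = 2.17e-05 in limma), -0.99 for Hnf4a (adjusted p = 0.00051), -0.88 for Klf4 (adjusted p = 0.00223) and -0.68 for Cdx2 (adjusted p = 0.0326), which makes 4 of 7 factors called lower against 6.73% of tested genes. Without WT mouse 1 the same 4 genes had the opposite sign, at 0.57 for Cdx1 (adjusted p = 0.168), 0.29 for Hnf4a (adjusted p = 0.260), 0.07 for Klf4 and 0.23 for Cdx2. Then 1 other factor, Klf5, passed as higher in Tnfr2-/- by 0.37 (adjusted p = 0.0426 in limma, 2.19% of tested genes called higher), and at early days Cdx1 passed as higher by 1.03 (adjusted p = 0.0454, 0.835% called higher). Without WT mouse 2 the early difference was instead called lower for Cdx1 (-1.65, adjusted p = 0.0025 in limma) and Hnf4a (-0.73, adjusted p = 0.0171), beside 1.79% of tested genes called lower. At late days the difference was -1.81 without WT mouse 2 and -0.13 without WT mouse 1 for Cdx1, -1.38 and -0.05 for Hnf4a, and -1.29 and 0.11 for Klf4. These 3 were called lower late without WT mouse 2 (7.88% of tested genes called lower) and not without WT mouse 1. Each of these fits has 1 WT mouse, which is assumed to vary like the mice of the other genotype. The 5 libraries of that animal enter as separate samples, so its p-values count 1 animal 5 times and are too small. The late rise was called without WT mouse 1 as well. Without it Cdx1 was higher late by 2.31 (adjusted p = 6.5e-05 in limma), Hnf4a by 1.19 (adjusted p = 0.000228) and Klf5 by 0.81 (adjusted p = 0.000204), where 14.3% of tested genes were called higher. Without either Tnfr2-/- mouse, Klf5 kept its call, while Cdx1 (2.00 and 2.13, adjusted p = 0.122 and 0.0999 in limma) and Hnf4a (1.28 and 1.13, adjusted p = 0.0824 and 0.111) lost theirs at differences close to those from all libraries, and 6.5% and 6.98% of tested genes were called higher.

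**Figure D4:**
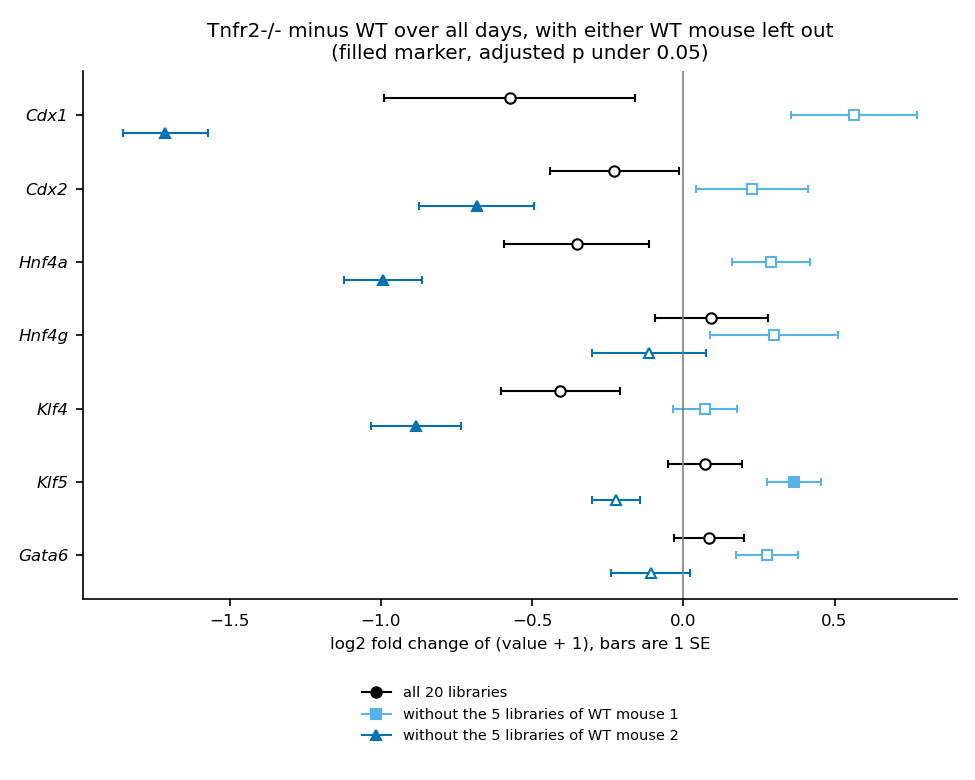
Tnfr2-/- minus WT over all days as differences of log2(value + 1) with bars of 1 SE, from all 20 libraries (circles), without the 5 libraries of WT mouse 1 (squares) and without those of WT mouse 2 (triangles). Filled markers have an adjusted p under 0.05. Without WT mouse 2, Cdx1, Cdx2, Hnf4a and Klf4 are filled and below 0. Without WT mouse 1 the same genes are open and above 0, and Klf5 alone is filled.

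Fibroblast markers also divided the WT mice. Their sum over 12 genes was 4527 and 3566 at 1 and 2 DPP and 2319, 1402 and 2139 at 3, 5 and 7 DPP in WT mouse 1, whereas WT mouse 2 stayed between 3873 and 4774. In Tnfr2-/- the late sums were 4032 to 9932 (median 7403), against 1402 to 4774 (median 3006) in late WT. Over all days 3 of 12 fibroblast markers were called higher in Tnfr2-/- and 0 lower, against 7.6% of tested genes in either direction, led by Dcn, a matrix proteoglycan (1.65, adjusted p = 0.00101 in limma), and without WT mouse 1 this was 1 of 12. Summed epithelial markers were between 13878 and 17534 in WT mouse 1 and between 11635 and 19458 in WT mouse 2, and 2 of these 7 genes, Epcam and Cldn7, were above in WT mouse 1 at all 5 days. Immune markers were low in sum, between 9.90 and 20.9 in WT and between 18.2 and 50.7 in Tnfr2-/-, and Cd68, a macrophage gene also found in other cells, was called higher in Tnfr2-/- (1.13, adjusted p = 0.000449 in limma), as was Csf1r, a receptor of macrophages (0.76, adjusted p = 0.0285). The neuronal marker Uchl1 was called higher in Tnfr2-/- too (1.00, adjusted p = 0.0360). Goblet markers summed to between 40.4 and 682 in WT mouse 1 and between 2.36 and 169 in WT mouse 2. For colonocyte markers these ranges were 255 to 956 and 180 to 395, and for stem markers 31.7 to 78.0 and 23.4 to 94.2. The part of these cell types in the values of the 7 factors was not tested. From early to late days 5 of 12 fibroblast markers were called higher and 0 lower within Tnfr2-/- (10.4% of tested genes called higher), and 2 higher and 1 lower within WT (11.6% higher, 20.1% in either direction). Over both genotypes Csf1r (0.98, adjusted p = 0.00429 in limma) and Cd68 (0.46, adjusted p = 0.0379) were called higher late, and Pecam1 and Uchl1 did not pass.

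Other factors of the same network were taken from lists of genes. Of 22 other identity factors 16 were measured, and 13 rose from early to late days and 0 fell, beside 18.0% of tested genes called higher and 32.7% in either direction, with a median difference of 0.72. Nr1i2, the xenobiotic receptor PXR, rose by 2.04 (adjusted p = 0.000247 in limma), Creb3l3, a regulator of lipid genes, by 1.24 (adjusted p = 0.00797), Prdm1, known as a repressor of the adult program in fetal gut, by 1.21 (adjusted p = 0.00103) and Elf3, an epithelial ETS factor, by 1.13 (adjusted p = 7.73e-05). Of 15 other KLF factors 10 were measured and 6 rose (18.0% of tested genes called higher), with a median of 0.47, led by Klf11 at 0.90 (adjusted p = 0.00108) and Klf12 at 0.86 (adjusted p = 0.00489). With libraries rescaled to equal totals 5 of these KLF factors were called higher and 1 lower. Among 5 other GATA factors 1 was measured, Gata3, with a difference of 0.84 (SE 0.431, adjusted p = 0.154). Between genotypes over all days 1 of 16 identity factors was called, Elf3, higher by 0.48 in Tnfr2-/- (adjusted p = 0.0454 in limma), a share near the 7.6% of all tested genes. With equal totals this became 0 higher and 2 lower, where 8.49% of tested genes were called. Of the KLF factors Klf3 was called, lower by 0.33 in Tnfr2-/- (-0.33, adjusted p = 0.0332).

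Most measured genes that CDX and HNF4 factors are known to bind or activate rose late. Of 32 such genes 27 were measured, 16 were called higher late and 2 lower, beside 18.0% of tested genes called higher and 32.7% in either direction, and the median difference was 0.82. The cell-surface mucin Muc13 rose by 3.73 (adjusted p = 0.000239 in limma), the sulfotransferase Sult1b1 by 2.84 (adjusted p = 0.000423), and the brush border genes Ush1c by 2.35 (adjusted p = 0.000132) and Cdhr5 by 1.87 (adjusted p = 0.00271). The 2 that fell, named after their values were seen, handle fatty acids: Fabp2 (-0.98, adjusted p = 0.0118) and Acsl5 (-0.82, adjusted p = 0.00139). In WT 12 were called higher and 1 lower (11.6% of tested genes higher, 20.1% in either direction), with a median of 1.03. In Tnfr2-/- 9 were called higher and 1 lower (10.4% higher, 20.3% in either direction), with a median of 0.57. Fabp1, a target in small intestine, was listed at 0 in all 20 libraries. Between genotypes 1 of 27 was called higher, Mttp (0.44, adjusted p = 0.0352), and 1 lower, Mep1b (-1.22, adjusted p = 0.0425), again a share near the 7.6% of all tested genes. With equal totals these counts became 0 and 3 (8.49% of tested genes).

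The targets divided the WT mice as the factors did. Of 27 measured targets 16 were higher in WT mouse 1 than in WT mouse 2 at all 5 days, and 12 were highest in WT mouse 1 among the 4 mice at all days, against the shares of 8.84% and 2.54% of all tested genes given above. Their summed abundance was between 3341 and 8280 in WT mouse 1 (median 4162) and between 2369 and 3585 in WT mouse 2 (median 2833). The Tnfr2-/- mice lay between, at 2800 to 4574 (median 3495) and 2523 to 4653 (median 3358). Without WT mouse 2, 17 of 27 targets were called lower in Tnfr2-/- and 0 higher over all days, beside 6.73% of tested genes called lower in that fit. Without WT mouse 1, 4 were called higher and 0 lower, beside 2.19% of tested genes called higher. The median difference turned with them, from -0.66 to 0.18.

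**Figure D5:**
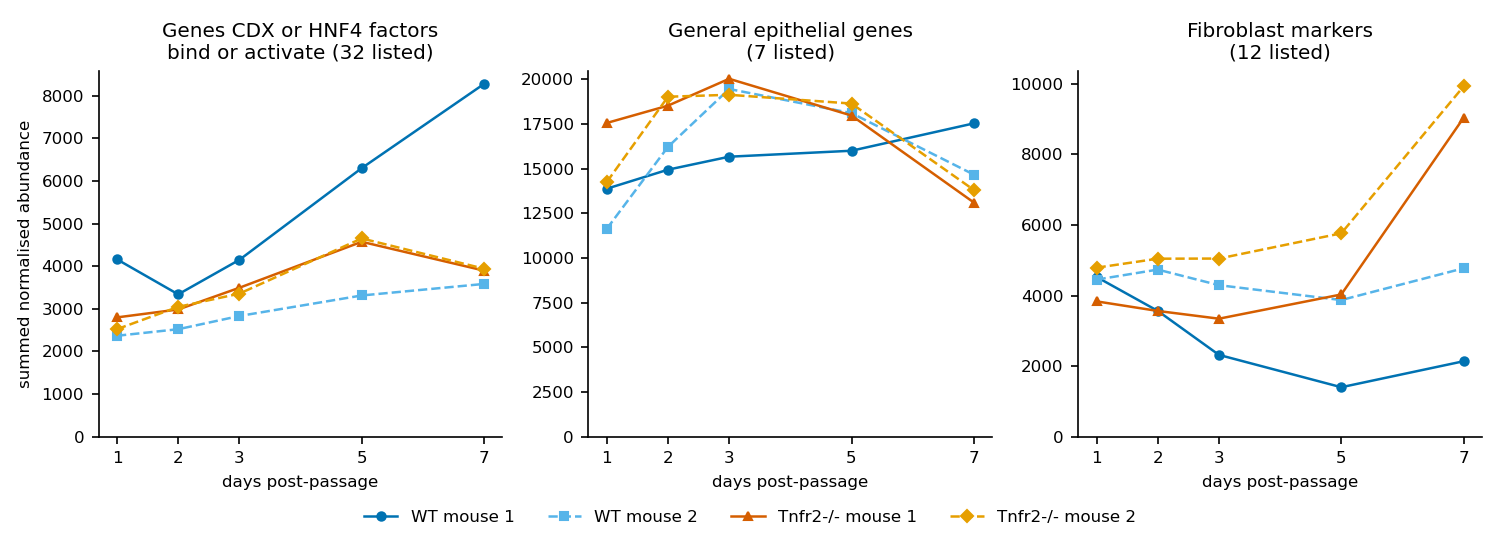
Summed normalised abundance of the 32 listed genes that CDX or HNF4 factors bind or activate (left), of 7 general epithelial genes (middle) and of 12 fibroblast markers (right) against days post-passage, 1 line for each of the 4 mice. WT mouse 1 is the highest line at all 5 days on the left, and on the right it is lowest at 5 DPP, at 1402, while the Tnfr2-/- lines end at 9041 and 9932 at 7 DPP.

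Foregut and squamous genes, which are known to appear when CDX activity is lost, were in part abundant. Of 20 listed, 7 passed the filter, and the list summed to between 441 and 3029 per library. The sum was lower in WT mouse 1 than in WT mouse 2 at every day. Medians over the days were 833 and 2026 in these mice, and 1647 and 1621 in Tnfr2-/- mouse 1 and mouse 2. The keratin Krt14 had a mean of 1152 ± 687 (SD, n = 20 libraries), above the mean of each of the 7 factors, and was never under 288. Krt6a averaged 254, Sprr1a 61.1, Dsg3 18.7 and Krt13 12.02, and the 13 genes that did not pass had means under 1. Sox2 was listed at 0 in 19 libraries, Trp63 in 18, and Tff2 in all 20. Among those measured the keratins Krt4 and Krt14 fell late (-1.70, adjusted p = 0.000239 in limma, and -0.81, adjusted p = 0.0118), while Krt15 (0.65, adjusted p = 0.0151) and Sprr1a (0.48, adjusted p = 0.0353) rose, where 18.0% of tested genes were called higher and 32.7% in either direction. The keratin Krt13 was called higher in Tnfr2-/- over all days by 1.49 (adjusted p = 0.0221) and over late days by 2.65 (adjusted p = 0.00801), the 1 gene of this list called over all days, beside 7.6% of tested genes over all days and 6.45% late.

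The genes most like each factor over the 20 libraries are given as a description, by Pearson's r of log2(value + 1) among genes with a mean of at least 5. The libraries share mice and days, so they are not independent points. Closest to Cdx1 were Ugt2b34 (r = 0.975), Cdhr5 (0.967) and Muc3 (0.960), and closest to Hnf4a were Ckmt1 (0.978), Oit1 (0.973) and Atp2a3 (0.968). Klf5 was matched best by B3galt5 (0.972), Cd38 (0.966) and Galnt6 (0.959). The best matches were Tfcp2l1 for Klf4 (0.884), Tmem30b for Gata6 (0.823), Lmbr1 for Hnf4g (0.797) and Strbp for Cdx2 (0.774). Among the 7 factors themselves the highest r was between Cdx1 and Hnf4a (0.932) and the lowest between Cdx2 and Hnf4g (0.266). Taking out the mean of each genotype and day leaves the difference between the mice of a group. With 2 libraries per group the deviations mirror each other, so they are not 20 separate points. The gap between the WT mice was larger than that between the Tnfr2-/- mice for each factor. On the log2 scale it was 0.956 against 0.137 for Klf4 and 0.587 against 0.0918 for Klf5. Over these deviations r was 0.964 between Klf4 and Klf5, 0.938 between Cdx1 and Hnf4a and 0.916 between Cdx2 and Klf5, which were 0.600, 0.932 and 0.418 before.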

How the data were processed

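The authors' deposited table gives a signal per transcript and library, TPM divided by a size factor per library, with per-sample columns for all 20 libraries. The submitters' processing notes name CASAVA, kallisto, sleuth and mm10; the annotation release is not given in the sources used here. Columns with the authors' own test of genotype were not used. The table held 113974 lines, of which 781 repeats were dropped. Another 199 transcripts had no symbol and held at most 0.0989% of a library. Values were summed per symbol and analysed as log2(value + 1), a scale that understates changes of low genes, for 13539 genes with a mean of at least 1. limma 3.58.1 in R 4.3.3 was fitted with a mean-variance trend and a mean for each of 10 groups, or with day as a factor plus genotype for the difference over all days. P-values were adjusted by Benjamini-Hochberg over all genes (38609 transcripts and 34367 shares for those tests), and an adjusted p under 0.05 is a call. The plan had allowed for counts; the size-factor-normalised signal was tested with limma. The script was tested on simulated data. Library depth is not in the table, which limits the precision of low values.

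Replicate numbers were read as mice within a genotype, from the series' design text and the column names, so that a number pairs the days of 1 mouse. No label states this outright. Across genotypes the numbers name different mice, and the differences between mouse 1 and mouse 2 correlated between genotypes at -0.054 to 0.076 over the 5 days. Within WT they correlated between days at 0.100 to 0.307 and within Tnfr2-/- at -0.051 to 0.080 (10 pairs of days each). The Tnfr2-/- range is like that between genotypes. These values thus do not show that a Tnfr2-/- number follows the same mouse over the days. The 7 genes, the gene lists and the comparisons were chosen with earlier results of these data known. All 7 genes are named in each comparison. From each list the text names up to 4 called genes with the largest difference, and for likeness the closest genes among 10653 (10654 for Cdx2 and Hnf4g). Coordinates and transcript models are from GENCODE M21 (GRCm38). The Gata6 transcript has version 7 in the table and 9 there. Alternatives were another pseudocount, other filters, 2 rescalings, sums per Ensembl identifier and mouse means. Others were the mouse as a replicate block (the replicate number for genotype) or a correlated block, and leaving out each library or mouse.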

Additional observations from a re-analysis of the deposited data

Results flagged for a closer look

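Of 28 groups of 4 or 6 libraries (1 factor in 1 genotype and phase), 2 held a library far from the others by Dixon's gap ratio, where chance gives about 1 in 20. In late Tnfr2-/- libraries, Cdx2 was 7.71 in mouse 1 at 5 DPP, and 0.876 of the group's range lay between it and the next value. In early Tnfr2-/- libraries, Hnf4g was 2.64 in mouse 2 at 3 DPP, with a ratio of 0.709. Both are low genes with no call in any comparison of all libraries.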

How the results depend on the processing

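The table holds no read depth. The main fits hold no term for the mouse and take all libraries as independent, though late and early libraries of a mouse are not. The p-values of those fits measure the spread among libraries, with 2 mice per genotype behind them. Low values (Hnf4g, Cdx2) rest on few reads. Pseudocounts, filters, other scalings, sums per identifier and mouse means turned no factor outside the equal totals below, and Cdx1 alone lost a call among them, in the F test, with a pseudocount of 0.1 (adjusted p = 0.0503 in limma) and with no filter (adjusted p = 0.0946). With libraries rescaled to equal totals, late against early over both genotypes moved from 2431 genes higher and 1993 lower to 1883 and 2588, and genotype over all days from 611 and 418 to 426 and 724. That scaling turned Gata6 late against early in Tnfr2-/- (-0.013) and Klf5 between genotypes at late days (-0.0097) and over all days (-0.00094). For comparisons over time, the mouse as a replicate block pairs libraries of 1 animal. For genotype comparisons the block was the replicate number, which pairs different mice of the 2 genotypes. The block gave 3 factors called late against early in Tnfr2-/- (24.7% of tested genes) and 4 steps between days, and changed no other call of the 7 genes. The mouse as a correlated block gave 3 and 1 (23.2% of tested genes, and 3.61% at the step from 3 to 5 DPP). Without Tnfr2-/- mouse 1 or mouse 2, calls late against early were 1 over both genotypes (11.96% and 13.6% of tested genes), 0 in WT (7.81% and 7.80%) and 0 in Tnfr2-/- (0.0148% and 0.0222%), with 0 transcripts (0.648% and 0.736% of transcripts) and 0 in the F test (1.43% and 1.34%). Without WT mouse 1 they were 3 in Tnfr2-/- (25.3% of tested genes), with 1 between genotypes early (1.46%), 1 over all days (3.597%) and 2 at the step from 3 to 5 DPP (3.18%). Without WT mouse 2 they were 3 in Tnfr2-/- (25.2%), with 3 between genotypes late (16.1%), 2 early (5.32%), 4 over all days (14.3%), 7 over single days (Cdx1 at 3, 5 and 7 DPP, Hnf4a and Klf4 at 5 and 7 DPP, where 1.76%, 8.46% and 6.62% were called), 3 at the step from 3 to 5 DPP (3.59%) and 2 transcripts (1.69% of transcripts). Genotype differences that turned without WT mouse 1 were Cdx2 at 0.37, Gata6 at 0.24 and Klf4 at 0.11 late, Cdx1 at 1.03, Cdx2 at 0.14, Hnf4a at 0.52 and Klf4 at 0.047 early, and Cdx1 at 0.57, Cdx2 at 0.23, Hnf4a at 0.29 and Klf4 at 0.072 over all days. Those that turned without WT mouse 2 were Klf5 at -0.30 late, Hnf4g at -0.037 and Klf5 at -0.17 early, and Gata6 at -0.11, Hnf4g at -0.11 and Klf5 at -0.22 over all days. Without Tnfr2-/- mouse 1, Hnf4g late against early in Tnfr2-/- was -0.067, and without mouse 2 the late genotype difference was 0.054 for Cdx2 and 0.025 for Hnf4g. Leaving out single libraries, 1 to 5 factors were called late against early in WT and 1 to 4 transcripts over both genotypes. Differences that turned then ranged from -0.14 to 0.43 for Cdx2 late against early in WT and from -0.023 to 0.16 for Gata6 in Tnfr2-/-. Between genotypes at late days they ranged from -0.39 to 0.18 for Cdx2, -0.28 to 0.11 for Gata6, -0.42 to 0.19 for Hnf4g and -0.13 to 0.27 for Klf5. At early days the ranges were -0.80 to 0.19 for Cdx1, -0.34 to 0.12 for Hnf4a and -0.033 to 0.18 for Klf5, and over all days -0.0036 to 0.14 for Klf5. The causes were not tested. Of the values for single factors under all alternatives, 1652 kept direction and call, 58 lost a call, 28 gained one and 47 turned.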
